A study of Mus musculus with 18 samples.

Results

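The genes examined are 10 targets of the transcription factor p53: Cdkn1a, Ccng1, Mdm2, Fas, Tnfrsf10b, Bbc3, Bax, Trp53inp1, Phlda3 and Sesn1. Members were taken as the probe sets whose annotated symbol is exactly that name. Of the 10 genes, 9 were measured, each on 1 probe set, among 22180 genes tested. Bax was not analysed here. The arrays report expression in the ileum of 18 B10.BR mice, 8-12 weeks old at transplant, with 1 array for each mouse. All 18 recipients were given 11 Gy of total body irradiation on day -1, and on day 0 received 5000000 T cell-depleted marrow cells of allogeneic C57Bl/6 donors. Ileum was collected on day 21. The first arm also received 2000000 purified donor T cells and develops graft-versus-host disease (GvHD), per the labels, the attack of donor T cells on the recipient. The second arm received marrow only. In each arm mice were gavaged daily with indole-3-carboxaldehyde (ICA), which derives from tryptophan and binds the aryl hydrocarbon receptor, at a dose of 150 mg/kg, or with a vehicle of 2% citric acid, 40% PEG400 and 20% DMSO. The groups were T cells with ICA (5 mice), T cells with vehicle (4), marrow only with ICA (5) and marrow only with vehicle (4). There was no unirradiated group, so irradiation is shared by every mouse and its own effect cannot be read from these data. Values are log2 array signals, and each difference is of log2 values.

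DNA damage stabilises p53, which binds response elements near its target genes and switches them on. Some targets stop the cell cycle, some promote cell death, some carry out repair or metabolic adjustment, and Mdm2 closes a feedback loop by marking p53 for degradation. In the small intestine, crypt cells respond to irradiation through p53 within hours, so day 21 is a late sample. The ileum is also a target of GvHD, in which Fas ligand on donor T cells engages Fas on recipient cells.

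Promoter windows from RefSeq (GRCm38.p6), 250 bases before to 50 after each gene start, were searched on both strands for the 10-base p53 binding consensus, and for 20-base sites made of 2 adjoining copies with at most 1 mismatch. Windows were found for 7 of the 9 measured genes (11 windows). Trp53inp1 and Tnfrsf10b have no entry in the table. The 10-base consensus stood in 4 of these 11 windows, and in 8.36% of all 32851 windows. Counted by gene it stood in 4 of 7, and in 2582 of all 27025 genes. The 20-base site stood in 2 of the 11 windows, 1 of Cdkn1a and 1 of Ccng1, and in 0.0883% of all windows. These windows are shown because they hold the longest matches among the measured genes, with the 20-base site in capitals. A further 10-base copy in the Cdkn1a window shown is left in lower case. The Cdkn1a window shown is chr17:29090729-29091028 on the plus strand, and the site at chr17:29090928-29090947 begins 51 bases before the start in that window. Another Cdkn1a window, chr17:29093519-29093818 on the plus strand, lies at another start and holds neither site. The Ccng1 window is chr11:40755237-40755536 on the minus strand, and the site at chr11:40755462-40755481 begins 195 bases before the start. Mdm2 and Sesn1 hold a 10-base copy only, at chr10:117710935-117710944 (minus strand) and chr10:41887266-41887275 (plus strand). Another Sesn1 window, chr10:41810324-41810623, holds neither site. A match is a description of the letters and does not show binding.
Cdkn1a: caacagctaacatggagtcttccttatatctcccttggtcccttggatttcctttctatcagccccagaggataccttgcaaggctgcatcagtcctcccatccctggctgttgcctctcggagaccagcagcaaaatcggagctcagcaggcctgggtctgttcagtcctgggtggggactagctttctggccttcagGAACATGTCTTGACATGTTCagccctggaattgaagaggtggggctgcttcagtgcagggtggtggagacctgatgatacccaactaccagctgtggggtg
Ccng1: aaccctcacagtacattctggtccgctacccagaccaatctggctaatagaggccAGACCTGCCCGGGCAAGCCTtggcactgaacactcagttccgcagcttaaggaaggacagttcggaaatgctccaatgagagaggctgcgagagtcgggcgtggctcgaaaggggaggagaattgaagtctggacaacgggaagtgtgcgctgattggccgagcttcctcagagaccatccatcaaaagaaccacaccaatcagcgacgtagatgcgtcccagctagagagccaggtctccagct
Mdm2: GAACTTGCCT
Sesn1: AAGCTTGTTT

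The question for the graft arms was whether p53 targets differ at day 21 between mice with and without donor T cells. Under vehicle, between T cell and marrow-only mice, 0 of the 9 genes passed an adjusted p of 0.05 (limma, Benjamini-Hochberg over 22180 genes), against 1.47% of all genes. At an unadjusted p under 0.05 it was 1 of 9 genes, against 13% of all genes. The estimate was above 0 for 9 of 9 genes under vehicle (51.9% of all genes), for 5 of 9 under ICA (47.6%) and for 6 of 9 averaged over both treatments (49.5%). Under ICA, 1 of 9 genes (Fas, lower) passed, against 3.12% of all genes in either direction and 2.07% lower. At an unadjusted p under 0.05 it was 5 of 9 genes under ICA, against 16.6% of all genes. Averaged over both treatments, 1 of 9 genes (Trp53inp1, higher) passed, against 7.21% of all genes in either direction and 3.58% higher. An unadjusted p under 0.05 was reached in that average by 5 of 9 genes, against 19.9% of all genes. The median difference of the 9 genes was 0.10 under vehicle, 0.14 under ICA and 0.12 averaged, with all genes at 0.01, -0.01 and -0.00128. 

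**Figure D1:**
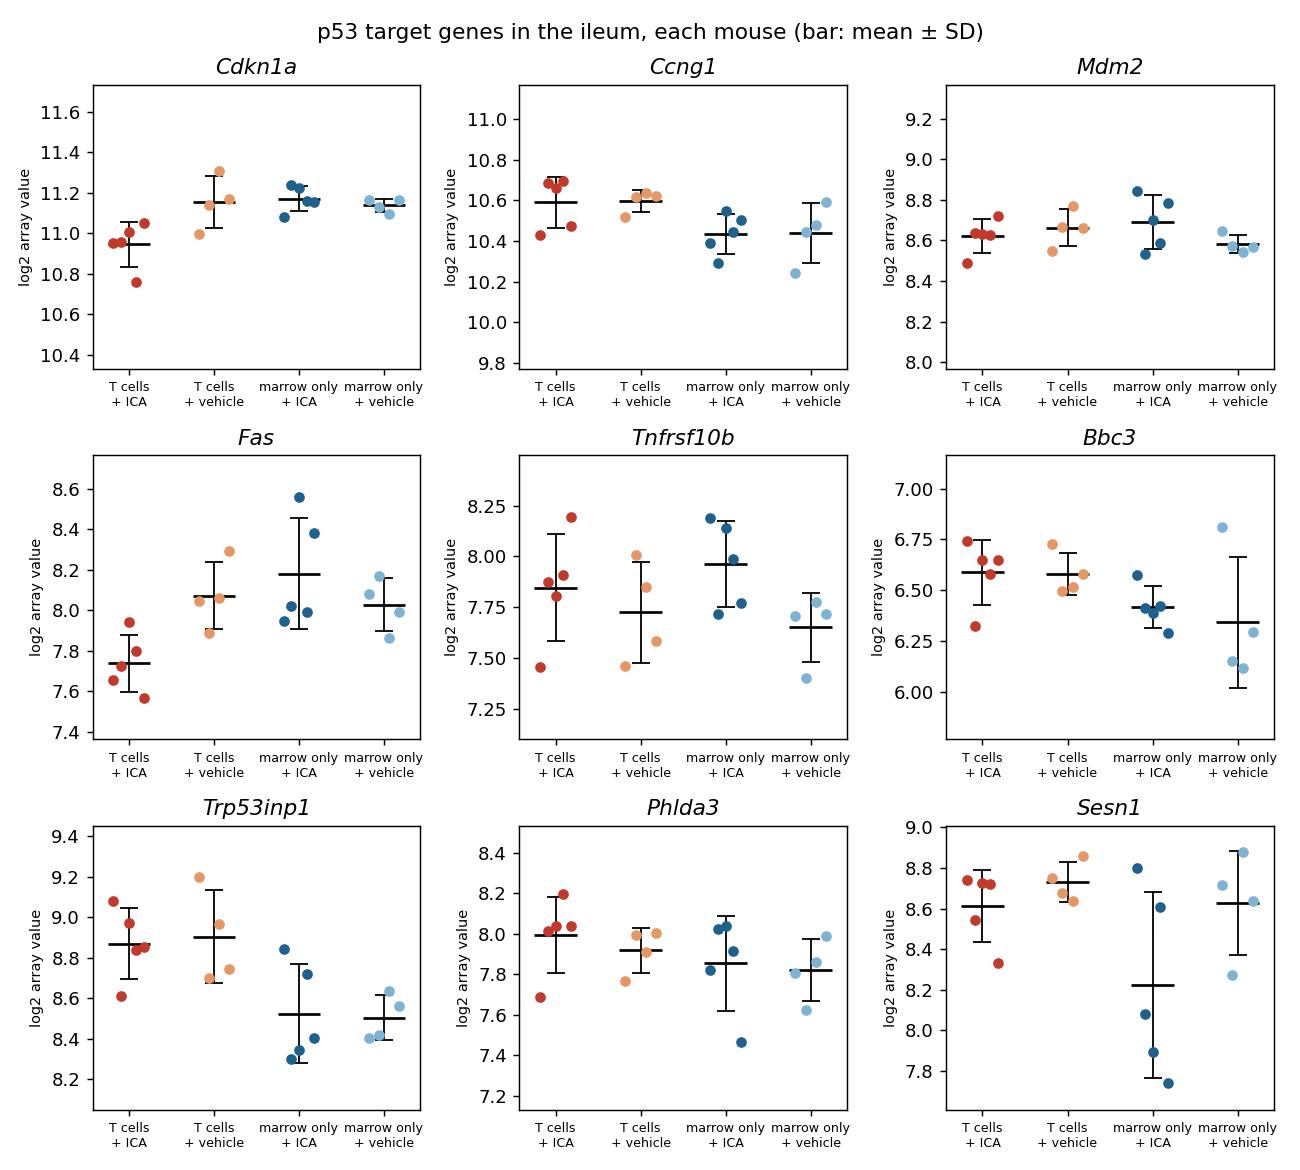
Log2 array value (vertical axis) of each of the 9 measured p53 target genes in each mouse, with dots for mice and bars for group mean and SD. Fas values of T cell mice given ICA, 7.57 to 7.94, lie below every marrow-only mouse given ICA, and the Trp53inp1 means of the T cell groups, 8.87 and 8.90, lie above those of the marrow-only groups, 8.52 and 8.51.

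Of the genes that act on the cell cycle, Cdkn1a encodes p21, the inhibitor of cyclin-dependent kinases through which p53 halts the cycle. Cdkn1a read 10.95, 10.96, 11.01, 10.76 and 11.05 in T cell mice given ICA, 10.99, 11.14, 11.31 and 11.17 in T cell mice given vehicle, 11.08, 11.24, 11.22, 11.16 and 11.15 in marrow-only mice given ICA, and 11.16, 11.13, 11.09 and 11.16 in marrow-only mice given vehicle. The T cell mice given ICA all lay below the marrow-only mice given ICA, whereas the vehicle groups overlapped. In the ICA comparison Cdkn1a differed by -0.23 ± 0.0644 (SE; 95% interval -0.36 to -0.09), and the adjusted p of 0.0605 missed the threshold. Under vehicle the Cdkn1a difference was 0.02 ± 0.072 (adjusted p 0.962). Without marrow-only ICA mouse 1 the ICA difference was -0.25 with an adjusted p of 0.0313, and without T cell vehicle mouse 1 it was -0.23 with an adjusted p of 0.0498. The other omissions of a mouse left it uncalled, with an adjusted p up to 0.139.

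Ccng1, which encodes cyclin G1, a p53 target that recruits a phosphatase to Mdm2, also carries the 20-base site in its window. Ccng1 read 10.43, 10.69, 10.66, 10.70 and 10.48 in T cell mice given ICA, 10.52, 10.62, 10.64 and 10.62 in T cell mice given vehicle, 10.39, 10.29, 10.55, 10.45 and 10.50 in marrow-only mice given ICA, and 10.24, 10.44, 10.48 and 10.59 in marrow-only mice given vehicle. The groups overlapped within each treatment. The difference averaged over both treatments was 0.16 ± 0.0553 (adjusted p 0.0952). It passed in 1 of 18 omissions, without T cell ICA mouse 1 (0.18, adjusted p 0.0446), and the adjusted p of the others ran to 0.209. T cell ICA mouse 1 was 1 of the 2 arrays farthest from their group means.

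Mdm2, the ubiquitin ligase that restrains p53, varied little. Its group means (SD) were 8.62 ± 0.08 in T cell mice given ICA, 8.66 ± 0.09 in T cell mice given vehicle, 8.69 ± 0.13 in marrow-only mice given ICA and 8.58 ± 0.04 in marrow-only mice given vehicle. The arms overlapped under both treatments, and the averaged difference was 0.01 ± 0.0523 (adjusted p 0.974). Mdm4, the related inhibitor of p53, differed by -0.08 ± 0.0586 (adjusted p 0.489).

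Fas and Tnfrsf10b are the death receptors of the set. Fas binds Fas ligand and Tnfrsf10b binds TRAIL, and both recruit caspase 8. Fas read 7.66, 7.73, 7.94, 7.80 and 7.57 in T cell mice given ICA, 8.05, 7.89, 8.06 and 8.29 in T cell mice given vehicle, 7.95, 8.02, 8.56, 7.99 and 8.38 in marrow-only mice given ICA, and 8.08, 8.17, 7.86 and 7.99 in marrow-only mice given vehicle. Under ICA the arms did not overlap, though the highest T cell mouse and the lowest marrow-only mouse nearly met, and under vehicle they overlapped. Fas fell in T cell mice under ICA, with a difference of -0.44 ± 0.113 (95% interval -0.68 to -0.21; adjusted p 0.0341). Under vehicle the difference was 0.05 ± 0.126 (adjusted p 0.929). The interaction, which tests whether the 2 differences are unequal, was -0.49 ± 0.169 (interval -0.84 to -0.14; p 0.00893, adjusted p 0.71).

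Under ICA, 2 of 9 genes (Fas and Cdkn1a) had T cell values all below the marrow-only values, against 2.17% of all genes. The Fas call was lost on leaving out T cell ICA mouse 1, 2, 4 or 5, or marrow-only ICA mouse 3 or 5, and the adjusted p over the 18 omissions ran to 0.11. Fas is also made by lymphocytes, and marker lists moved in the same comparison. Of all genes 1.05% rose and 2.07% fell in that comparison. Of the T cell markers, 2 of 8 rose and 1 fell, with summed linear signals of 2055 to 3543 in T cell mice given ICA and 967 to 2183 in marrow-only mice given ICA. B cell markers fell for 3 of 5, with sums of 249 to 1696 in T cell mice given ICA and 840.03 to 1554 in marrow-only mice given ICA. Smooth muscle markers rose for 6 of 6, with sums of 14431 to 19505 in T cell mice given ICA and 11641 to 13455 in marrow-only mice given ICA. Paneth cell markers fell for 2 of 4, with sums of 9656 to 18060 in T cell mice given ICA and 18289 to 21931 in marrow-only mice given ICA. Of the other lists, 2 of 7 macrophage, 1 of 6 cytotoxic and 1 of 7 enterocyte markers rose. Their part in the result was not tested. In a piece of tissue, fewer cells of a type and less RNA in each cell cannot be told apart.

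Tnfrsf10b had a within-group SD of 0.229, against 0.191 for Fas. It read 7.45, 7.87, 7.80, 7.91 and 8.19 in T cell mice given ICA, 7.46, 8.01, 7.85 and 7.58 in T cell mice given vehicle, 8.19, 7.72, 8.14, 7.99 and 7.77 in marrow-only mice given ICA, and 7.70, 7.40, 7.77 and 7.72 in marrow-only mice given vehicle. The groups overlapped in every comparison. The averaged graft difference was -0.02 (adjusted p 0.948). Of the ligands, Fasl rose by 0.87 ± 0.123 on average (adjusted p 0.000168), and Tnfsf10, which encodes TRAIL, differed by -0.08 ± 0.0855 (adjusted p 0.697). Fasl passed under both treatments, at 0.72 under ICA (adjusted p 0.0161) and 1.01 under vehicle (adjusted p 0.00732). Fasl ran from 6.33 to 6.70 in T cell mice given ICA and from 6.18 to 6.86 in T cell mice given vehicle, against 5.41 to 6.18 in marrow-only mice given ICA and 5.25 to 5.86 in marrow-only mice given vehicle. No T cell mouse overlapped a marrow-only mouse of its treatment.

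**Figure D2:**
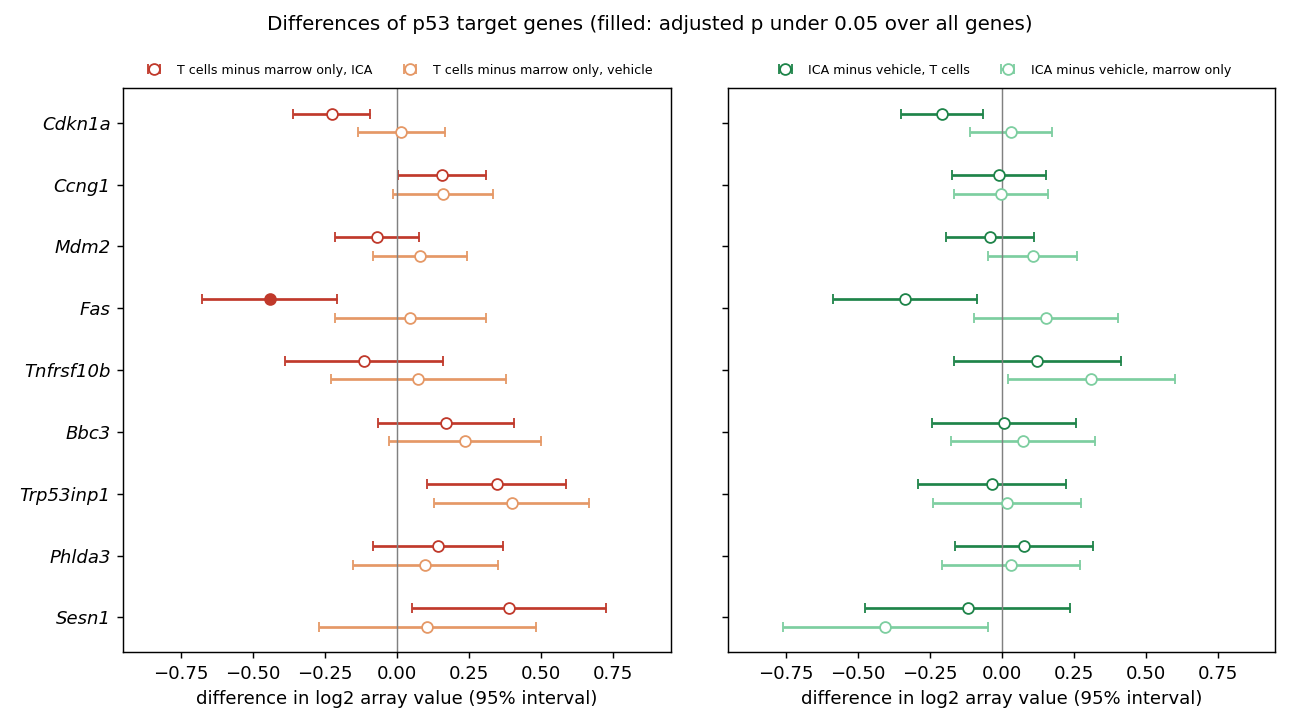
Differences in log2 value for the 9 genes, as estimates with 95% intervals. The left panel sets T cells minus marrow only, under ICA and under vehicle, and the right panel ICA minus vehicle in each arm. The only filled point is Fas, at -0.44 under ICA.

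Among the other death and stress genes, Trp53inp1 was the member that passed. Trp53inp1 encodes a stress protein that acts in p53-dependent cell death and autophagy. It read 9.08, 8.61, 8.97, 8.84 and 8.85 in T cell mice given ICA, 9.20, 8.70, 8.97 and 8.74 in T cell mice given vehicle, 8.85, 8.30, 8.34, 8.72 and 8.41 in marrow-only mice given ICA, and 8.40, 8.42, 8.64 and 8.56 in marrow-only mice given vehicle. Under vehicle the T cell mice all lay above the marrow-only mice (1 of 9 genes, against 6.33% of all genes), and under ICA the arms overlapped. Trp53inp1 rose by 0.37 ± 0.0868 averaged over both treatments (interval 0.19 to 0.55; adjusted p 0.0107). The differences were 0.40 ± 0.129 under vehicle (adjusted p 0.139) and 0.35 ± 0.116 under ICA (adjusted p 0.115), neither past the threshold. Without marrow-only ICA mouse 1 the difference under ICA was 0.43 (adjusted p 0.0253), and the other omissions left it uncalled, with an adjusted p up to 0.257. Macrophage markers rose for 7 of 7 in the averaged comparison, with summed linear signals of 3755 to 5690 in T cell mice given ICA and 4121 to 5705 in T cell mice given vehicle, against 2698 to 4861 in marrow-only mice given ICA and 2555 to 3241 in marrow-only mice given vehicle. Of all genes 3.58% rose in that comparison. In the same comparison most T cell and all smooth muscle markers also rose, and all B cell and Paneth cell markers fell, as counted below. Of all genes 3.62% fell. The part of any of these lists in the Trp53inp1 difference was not tested.

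Bbc3 encodes PUMA, which frees BAX and BAK to open mitochondria. Bbc3 means were 6.59 ± 0.16 in T cell mice given ICA, 6.58 ± 0.10 in T cell mice given vehicle, 6.42 ± 0.10 in marrow-only mice given ICA and 6.34 ± 0.32 in marrow-only mice given vehicle. In that last group mouse 1 read 6.81, and the other 3 mice 6.12 to 6.29. The averaged difference was 0.20 ± 0.0848 (adjusted p 0.172), and 0.28 (adjusted p 0.0163) without that mouse. No other omission gave a call, and the adjusted p ran to 0.319.

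Phlda3, a repressor of Akt signalling, averaged 7.99 ± 0.19 in T cell mice given ICA, 7.92 ± 0.11 in T cell mice given vehicle, 7.85 ± 0.23 in marrow-only mice given ICA and 7.82 ± 0.15 in marrow-only mice given vehicle. Its averaged difference was 0.12 (adjusted p 0.463). Sesn1, a sestrin that restrains mTORC1, read 8.74, 8.54, 8.72, 8.72 and 8.33 in T cell mice given ICA, 8.75, 8.68, 8.64 and 8.86 in T cell mice given vehicle, 8.80, 8.08, 7.89, 8.61 and 7.74 in marrow-only mice given ICA, and 8.72, 8.27, 8.88 and 8.64 in marrow-only mice given vehicle. Marrow-only ICA mice 2, 3 and 5 were lower than every other mouse. Under ICA the Sesn1 difference was 0.39 ± 0.161 (adjusted p 0.218), and over the omissions of a mouse it ran from 0.27 (adjusted p 0.475, without marrow-only ICA mouse 5) to 0.53 (adjusted p 0.0291, without marrow-only ICA mouse 1), the only omission that gave a call.

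The ICA comparisons asked whether the compound changed these genes within an arm. In T cell mice 0 of 9 genes passed, against 0.0135% of all genes. In marrow-only mice 0 of 9 passed, against 0.00451%. Averaged over both arms 0 of 9 passed, against 0.0135%, and in the interaction 0 of 9, against 0% of all genes. At an unadjusted p under 0.05, limma gave 2 of 9 genes in each of the 4 comparisons, against 6.89%, 7.52%, 7.73% and 6.68% of all genes. In T cell mice these were Fas at -0.33 ± 0.119 (interval -0.58 to -0.09; adjusted p 0.561) and Cdkn1a at -0.21 ± 0.0683 (interval -0.35 to -0.07; adjusted p 0.517). In marrow-only mice they were Sesn1 at -0.40 ± 0.171 (adjusted p 0.638) and Tnfrsf10b at 0.31 ± 0.139 (interval 0.02 to 0.60; adjusted p 0.645). The other 7 genes lay between -0.12 for Sesn1 and 0.12 for Tnfrsf10b in T cell mice, and between -0.004 for Ccng1 and 0.15 for Fas in marrow-only mice. Averaged over both arms the genes under that unadjusted p were Tnfrsf10b at 0.22 ± 0.0981 (adjusted p 0.618) and Sesn1 at -0.26 ± 0.121 (adjusted p 0.63). The averaged estimates of the other 7 genes lay between -0.09 for Fas and 0.06 for Phlda3. In the interaction they were Fas, given above, and Cdkn1a at -0.24 ± 0.0966 (adjusted p 0.724). The other 7 interaction estimates lay between -0.19 for Tnfrsf10b and 0.28 for Sesn1. The T cell mice given ICA also enter the graft comparison under ICA, so the Fas and Cdkn1a values of both comparisons share those mice.

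The 9 genes differed in how much mice of 1 group varied. The within-group SD was 0.0919 for Cdkn1a and 0.0955 for Mdm2, at the 5.39 and 6.63 percentiles of all genes. Ccng1 was at 0.113. Sesn1, at 0.292, stood at the 92.1 percentile, and the median gene had 0.161. Among the 36 pairs of members, correlations over the 18 mice after subtracting group means passed the adjusted threshold in 0 cases, and 4 had an unadjusted permutation p under 0.05. The highest was Trp53inp1 with Sesn1 (Pearson 0.63, permutation p 0.0203, adjusted p 0.243; Spearman 0.59, p 0.0282, adjusted p 0.323). It was 0.55 without the 2 mice farthest in Trp53inp1, 0.23 among the 9 T cell mice and 0.87 among the 9 marrow-only mice. The lowest was Bbc3 with Ccng1 (Pearson -0.67, permutation p 0.0146, adjusted p 0.243; Spearman -0.59, p 0.0265, adjusted p 0.323), which was -0.49 without the 2 mice farthest in Bbc3. The median over pairs was -0.04, and 17 of 36 were positive.

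The gene most like Trp53inp1 in that measure, over 22180 genes and 18 mice, was Arntl, the clock activator BMAL1, noticed after its values were seen. After subtracting group means, Pearson was 0.93 and Spearman 0.95. Because Arntl was picked as the closest of all genes on these same arrays, the values are a description and carry no p. It was 0.90 without the 2 mice farthest in Trp53inp1, 0.96 among the 9 T cell mice and 0.89 among the 9 marrow-only mice. Without subtracting group means it was -0.27. Arntl was lower in T cell mice, by -0.64 ± 0.0867 on average (adjusted p 0.000108), while Trp53inp1 was higher. Mouse 1 was highest and mouse 2 lowest for both genes in T cell mice given ICA, in T cell mice given vehicle and in marrow-only mice given ICA. In marrow-only mice given vehicle, mouse 1 was the lowest for both. The time of day of collection is not given in the sources used here. With Arntl as a covariate the averaged Trp53inp1 difference was 0.97. That estimate extrapolates, because the Arntl ranges of the vehicle groups do not overlap. Arntl was picked for its match to Trp53inp1 on these arrays, so no p is given for it.

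**Figure D3:**
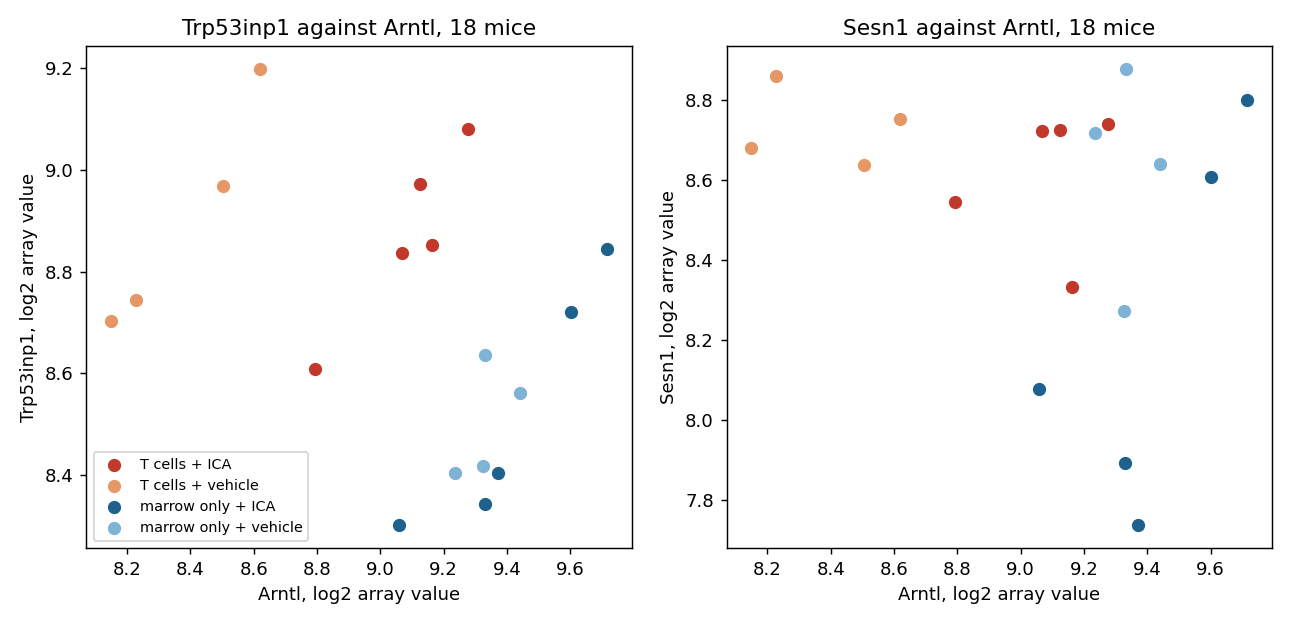
Log2 values of Trp53inp1 (left) and Sesn1 (right) against Arntl in 18 mice, with colours for the 4 groups. Within a group Trp53inp1 follows Arntl (Pearson 0.93 after subtracting group means), and the T cell mice given vehicle have the lowest Arntl values, 8.15 to 8.62.

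Of 26 measured other p53 pathway genes (Trp53 was not among the measured), 1 rose and 1 fell in the averaged comparison, with a median of -0.01. Of all genes 3.58% rose and 3.62% fell in that comparison, which is the background for this list and those that follow. Plk2, a kinase induced by p53, rose by 0.47 ± 0.102 (adjusted p 0.00601). Apaf1, the core of the apoptosome, fell by 0.31 (SE 0.0653, adjusted p 0.00563), and under ICA by 0.44 (adjusted p 0.00648). Apaf1 ran from 9.45 to 9.68 in T cell mice given ICA, against 9.74 to 10.22 in marrow-only mice given ICA, so those groups did not overlap. Of 11 measured death receptor genes, 1 rose (Fasl) and 2 fell, with a median of -0.13. Casp8, the initiator caspase, fell by 0.22 (SE 0.0507, adjusted p 0.00973) and also under vehicle, by 0.30 (adjusted p 0.0498), and Ripk3, the necroptosis kinase, fell by 0.37 (SE 0.0942, adjusted p 0.0208).

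Of 11 measured BCL2 family genes, 2 rose and none fell, with a median of -0.02. Bcl2l11 (BIM, which promotes cell death) rose by 0.36 ± 0.0666 (adjusted p 0.00216), and by 0.41 under vehicle (adjusted p 0.0411). Mcl1 (which opposes it) rose by 0.20 ± 0.0549 (adjusted p 0.0338). Of 17 measured proliferation genes 0 passed in limma and 1 had an unadjusted p under 0.05, and the estimates of 17 of 17 were below 0, with a median of -0.12. Of all genes 49.5% were above 0. Mcm6 was nearest to 0, at -0.00101. The smallest p values among them were of Bub1 at -0.25 ± 0.102 (adjusted p 0.165) and Aurka at -0.21 ± 0.104 (adjusted p 0.263). Mki67, the general marker of dividing cells, was at -0.10 ± 0.0896 (adjusted p 0.59).

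**Figure D4:**
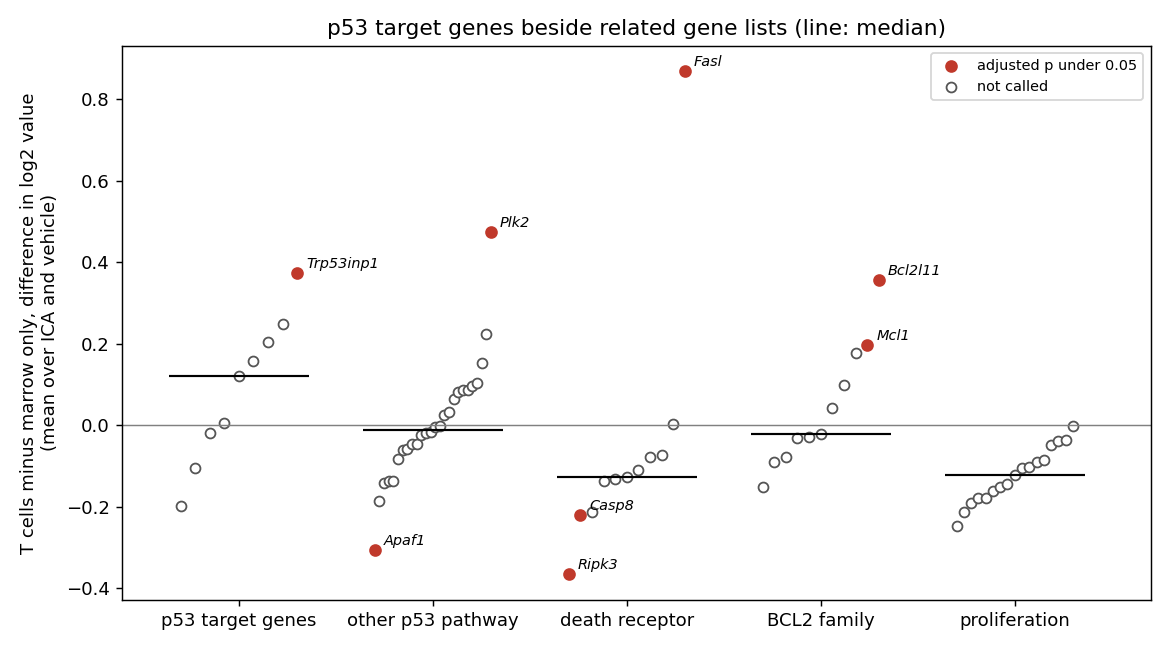
Difference in log2 value, T cells minus marrow only averaged over ICA and vehicle, for the 9 genes and 4 related lists. Each point is a gene, filled where the adjusted p was under 0.05, and the line is the list median, 0.12 for the 9 genes.

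Array medians lay between 6.47 and 6.51, and T cell ICA mouse 1 and marrow-only ICA mouse 1 stood farthest from their group means. Slc10a2, the ileal bile acid transporter, read 10.27 to 11.08 in all mice. In the averaged graft comparison, 6 of 8 T cell, 3 of 6 cytotoxic, 7 of 7 macrophage, 1 of 5 neutrophil, 1 of 7 enterocyte and 6 of 6 smooth muscle markers rose. In the same comparison 5 of 5 B cell, 4 of 4 Paneth cell and 1 of 5 crypt stem cell markers fell. Of 5 goblet cell genes 0 passed in limma (2 at an unadjusted p under 0.05), and of 7 interferon genes 0 passed (0 unadjusted). For the interferon genes that average joins unlike differences under ICA and under vehicle. These were 0.89 and -0.73 for Oas2, 0.74 and -0.32 for Ifit1, and 0.58 and -0.23 for Irf7. Isg15 was at 0.56 and -0.39, Mx2 at 0.37 and -0.71, Ifit3 at 0.10 and 0.09, and Irf1 at -0.17 and 0.04. The smallest adjusted p among these was 0.118, for Irf7 under ICA. Cd3e rose by 1.01, Csf1r by 0.78 and Actg2 by 0.52, and Cd79a fell by 1.23, Lyz1 by 0.45 and Lgr5 by 0.29. The part of these shifts in the differences of p53 targets was not tested.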

How the data were processed

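RNA of 18 ilea was hybridised to Affymetrix whole-transcript arrays, 1 per mouse. The deposited log2 values were made by the authors with Partek, GenomeStudio and RMA, per the submitters' processing notes. The sources used here give no versions, log base, filters or background correction. The table was taken as log2 and RMA-normalised from its range and near-equal array medians, and no further normalization was applied.

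Of 41345 probe sets, 23521 had 1 gene symbol, 1814 several and 16010 none listed. A gene was tested on its 1-symbol probe set with the highest mean, giving 22180 genes. The number of arrays limits the precision. A 4-group linear model was fitted with limma 3.58.1 (R 4.3.3; trend, 14 residual and 6.1 prior degrees of freedom), two-sided, with Benjamini-Hochberg adjustment over all genes and a threshold of 0.05. The model was tested on simulated data. A change of 0.4 was called for 28% of the changed genes between graft arms under vehicle, 42% under ICA and 75% averaged. For ICA against vehicle it was 38% in T cell mice, 36% in marrow-only mice and 74% averaged, and 4% for the interaction. A change of 1 was called for 85% in the interaction and for 98% to 100% in the other comparisons. The changed genes were drawn from all genes, so these rates are not those of any 1 member. A gene that was not called can still have differed by 0.4 where its own interval reaches that far. Cdkn1a and Mdm2, with within-group SDs of 0.0919 and 0.0955 against 0.161 for the median gene, are estimated more closely than most. Correlations between members used 100000 permutations within groups.

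The genes, lists and alternatives were chosen with earlier results of these data known. All members are named in the graft comparisons, and in the ICA comparisons those with an unadjusted p under the threshold, the rest by range. In each related list the text names called genes, up to 6, and the 2 with the smallest p, and always Mdm4, Fasl, Tnfsf10 and Mki67. Marker lists are given as counts, sums and the first listed gene where it was called. The alternatives tried were the samples in the fit, a block for mouse number, omission of each mouse, normalization, centring, 2 low-value filters, the mean of probe sets and the prior. Added later were 2 arrays left out and Arntl as covariate. Mouse numbers were not used to pair the mice in the main model. After subtracting group means, same-numbered mice of different groups correlated at -0.14 to 0.20 (25 pairs). Mice with other numbers correlated at -0.28 to 0.36 (96 pairs). These values do not settle whether same-numbered mice are paired. Figures used matplotlib 3.10.9.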

Additional observations from a re-analysis of the deposited data

Results flagged for a closer look

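T cell vehicle mouse 1 had a Ccng1 log2 value of 10.52, apart from the other 3 mice of its group at 10.62 to 10.64. It was the only 1 of 36 gene and group combinations with a value that far from the rest, and chance gives about 1 in 20.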

How the results depend on the processing

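No alternative reversed a called difference. Of 1800 member comparisons under alternatives, 1676 kept direction and call, 12 newly passed, 8 no longer passed and 104 changed the sign of an uncalled value. Of the 63 main values only Fas under ICA and Trp53inp1 averaged over treatments were called. Most of the 1676 were therefore uncalled values that stayed uncalled. The 8 that no longer passed were all Fas under ICA. Trp53inp1 averaged over treatments passed in all 18 omissions (0.32 to 0.41) and in 10 of 10 other settings (0.35 to 0.97). The 0.97 came with Arntl as covariate. Arntl was picked for its match to Trp53inp1, so the pass in that setting is no support for the call. Fas under ICA passed in 12 of 18 omissions (-0.50 to -0.35, adjusted p 0.0109 to 0.11) and in 9 of 11 other settings. The cause of the changes below was not tested unless the setting itself shows it.

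Fitting the compared groups alone gave 824 genes for the graft arms under vehicle, 321 under ICA with 0 members, 49 in ICA against vehicle with T cells and 0 without. The replicate block gave 0 members under ICA (Fas adjusted p 0.0527) and 0 genes in ICA against vehicle with marrow only, and changed no other count of members. A further quantile normalization gave 2 members in the averaged graft effect. Centring gave 2 members under ICA, as did a mean of at least 6. With no trend the averaged ICA effect had 1 gene, and with a robust prior 1, while ICA in marrow-only mice had 0. Without the 2 farthest arrays, counts were 754 under vehicle, 1446 under ICA with 2 members, 2478 averaged, 183 for ICA in marrow-only mice and 168 for the averaged ICA effect. With Arntl as covariate 1 gene was called under vehicle, the member Trp53inp1. Arntl was picked for its match to Trp53inp1, so calls of Trp53inp1 with this covariate are no support for a difference. The other counts with this covariate were 2 members under ICA, 168 genes averaged, 0 for ICA with T cells and 0 for the averaged ICA effect.

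Leaving out each mouse gave 94 to 515 genes under vehicle, 378 to 1373 under ICA with 0 to 4 members, 1 to 2 members averaged, 1 to 9 genes for ICA with T cells, 0 to 119 with marrow only, 1 to 97 averaged and 0 to 2 in the interaction. The highest of these under ICA, and for ICA in marrow-only mice, came without marrow-only ICA mouse 1.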

Other observations

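Genes most like Sesn1 over 18 mice after subtracting group means were Il12rb1 (Pearson -0.94), Erbb3 (0.93), Tgm2 (-0.93) and Insr (0.92). Without that subtraction they were -0.64, 0.90, -0.87 and 0.93. The Sesn1 SD was 0.46 in marrow-only mice given ICA and 0.10 to 0.26 in the other groups, so that group weighs most in these values. They were not split by arm. After Arntl, the genes most like Trp53inp1 were Zbtb20 (0.91), Cldn8 (0.89), Batf2 (-0.88) and Rgs2 (0.88). Without subtracting group means these were 0.57, 0.07, -0.75 and 0.93. These are descriptions of the same 18 arrays and were read from all genes, with no p. Clock genes were looked at after Arntl had been found in this way, as 72 pairs of a member and a clock gene. Pearson ran from -0.72 to 0.93 over these pairs, the highest being Trp53inp1 with Arntl. Trp53inp1 with Npas2 had Pearson 0.81 and Spearman 0.78, and Tnfrsf10b with Clock 0.65 and 0.69. The lowest pair exceeded Tnfrsf10b with Clock in size, so the pairs named are not a ranking. In permutations 3 of the 72 passed the adjusted threshold. Because clock genes were chosen after Arntl was seen, that count is no support for a link, and the values are descriptions with no p.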
